A study of Mus musculus with 16 samples.

Results

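The genes described here encode serglycin, the proteoglycan core protein of mast cell secretory granules, and enzymes that build heparin, the highly sulfated form of heparan sulfate that serglycin can carry. The genes were chosen by name, from a list of 10 names, and not by any measured value. 9 of the names were found as gene symbols among the 39179 genes of the count files. The remaining name, Exostosin1, matched no symbol or synonym in the annotation and is the protein name of Ext1, so it was not counted again. All 9 genes passed the filter on low counts and stand among the 13305 genes tested.

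RNA was sequenced from bone marrow derived mast cells (BMMCs), which were grown from the marrow of male C57BL/6 mice, 8 to 10 weeks old, for 4 weeks in medium with stem cell factor and IL3. The cells came from PEP+/+ mice and from PEP-/- mice, which lack the PEST-domain-enriched tyrosine phosphatase encoded by Ptpn22. All cells were sensitized with IgE (0.05 µg/ml by the labels, a lower concentration than the study's text gives) for 3 h. The 4 treatments were IgE alone, IgE followed by the antigen dinitrophenol coupled to albumin (IgE DNP, 200 ng/ml for 1 h), IgE with the glucocorticoid dexamethasone (IgE DEX, 100 nM for 8 h) and IgE with both (IgE DNP DEX). IgE alone thus served as the control for antigen, and there were no cells without IgE. Each of the 8 conditions had 2 replicates, 16 samples in all. The titles mark 1 replicate of each condition by a number and the other by a letter, and these 8 samples each are called the number set (replicate 1) and the letter set (replicate 2) below. How many mice or cultures lie behind the replicates was not stated, so p-values measure only the spread between these samples.

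The count files held 8612531 to 22143526 reads on genes per sample, with a median of 12814043.5. Ptpn22 had 130 to 2799 counts in the PEP+/+ samples and 0 to 55 counts in the PEP-/- samples. The mast cell identity of the cultures was checked with 10 marker genes, all of which were detected, at a summed level of 63201 to 103720 CPM (counts scaled to a common library size with TMM factors). Neutrophil, B cell, eosinophil, erythroid, and T and NK cell marker lists each summed to 10.3 CPM or less in every sample. The dendritic list summed to 1.17 to 19.5 CPM and the macrophage list to 5.87 to 80.0 CPM. A list of 3 basophil markers summed to 228 to 882 CPM and a list of 4 megakaryocyte markers, of which 1 passed the filter, to 1939 to 3919 CPM. In such bulk samples, fewer cells of a type and less RNA per cell cannot be told apart.

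Serglycin is a small protein with a run of alternating serine and glycine residues. Glycosaminoglycan chains are attached to these serines in the Golgi, and the negatively charged chains then hold proteases, histamine and other basic granule contents. Chain growth begins with xylose, which xylosyltransferases such as Xylt2 put on the serine. Ext1 and Ext2 together polymerise the heparan sulfate and heparin backbone. Ndst1 and Ndst2 replace acetyl groups by sulfate on glucosamine, Glce turns glucuronic into iduronic acid, and Hs2st1 and Hs6st1 add sulfate at further positions of the sugars. Mast cells are the classic source of heparin, and Ndst2 is the N-sulfotransferase known to be needed for heparin in connective tissue mast cells.

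The run in Srgn that takes the chains is shown because the chains of serglycin start there. It lies in exon 3 of 3 of transcript ENSMUST00000020271 in GENCODE M21, at chr10:62494998-62495057 on the minus strand of GRCm38. It holds 10 serine-glycine pairs in 60 bases, codons 90 to 109 of 152 with the stop codon. Capitals mark the serine codons.
Srgn serine-glycine run: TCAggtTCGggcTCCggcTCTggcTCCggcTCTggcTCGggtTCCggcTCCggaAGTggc

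The promoters of Srgn, Xylt2 and Ndst2 are shown because these genes moved with antigen in both settings of DEX. Each sequence is the 250 bases before an annotated start in RefSeq on GRCm38.p6, read in the direction of the gene. Capitals mark GGGCGG, the SP1 motif, or its reverse complement.
Srgn, chr10:62527446-62527695, minus strand: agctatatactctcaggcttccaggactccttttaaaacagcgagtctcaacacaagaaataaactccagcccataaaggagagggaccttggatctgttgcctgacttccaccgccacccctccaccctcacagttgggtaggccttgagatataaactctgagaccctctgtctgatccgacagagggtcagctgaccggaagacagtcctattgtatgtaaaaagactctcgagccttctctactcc
Xylt2, chr11:94677494-94677743, minus strand: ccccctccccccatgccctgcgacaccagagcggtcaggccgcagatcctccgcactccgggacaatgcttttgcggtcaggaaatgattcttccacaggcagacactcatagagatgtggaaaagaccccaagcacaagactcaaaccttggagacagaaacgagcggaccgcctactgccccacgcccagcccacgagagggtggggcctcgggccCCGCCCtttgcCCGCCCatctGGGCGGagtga
Ndst2, chr14:20734563-20734812, minus strand: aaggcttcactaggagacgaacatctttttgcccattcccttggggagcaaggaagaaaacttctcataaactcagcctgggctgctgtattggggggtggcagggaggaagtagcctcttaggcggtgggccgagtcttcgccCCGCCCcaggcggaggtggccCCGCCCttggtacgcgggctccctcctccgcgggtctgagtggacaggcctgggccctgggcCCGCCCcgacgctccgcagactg
The Xylt2 and Ndst2 windows each held 3 copies of GGGCGG within these bases, and the Srgn window held 0. Of 32851 promoter windows of the same length, 32.7% held this motif. GC content was 49.6% for Srgn, 63.2% for Xylt2 and 64.8% for Ndst2. The Hs6st1 window, with 76.4% GC, held 6 copies. Also searched on both strands were TGACGTCA, the cAMP response element (1.55% of windows), its shorter form TGACG, which lies within it (17.8%), TGANTCA for AP-1 (6.75%), GGAAAA for NFAT (20.4%), AGAACA for the glucocorticoid receptor (16.1%) and AGATAA for GATA factors (9.99%). None of these was in the Srgn or the Ndst2 window shown, and the Xylt2 window held GGAAAA once. Srgn has a second annotated start, whose window held TGACG once, and the NFAT and glucocorticoid receptor motifs once each. That window, with 42.8% GC, overlapped annotated exons by more bases than the windows shown and was left out for that. TATAAA was found once in the Srgn window shown, and in 12.4% of all windows. GGAAGT, the E26 core (19.7% of windows), was found once each in the Srgn and Ndst2 windows, and CANNTG, the E-box (66.2%), was found 2 times in the Srgn and once in the Xylt2 window. The count files do not separate the starts. 7 of the 9 genes, all but Ndst1 and Ext1, had a window in the table used.

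Srgn was by far the most abundant of the genes. Per kb of exon, Srgn had a median of 2616 CPM over the 16 samples, against 113 CPM for Ndst2, 27.7 for Hs6st1, 10.5 for Ext2, 4.90 for Hs2st1, 4.20 for Ndst1, 2.24 for Xylt2, 1.12 for Glce and 0.559 for Ext1. Srgn alone took 0.411 to 0.997% of all gene counts of a sample and ranked between 5 and 15 among all genes by CPM. The order from Srgn through Ndst2, Hs6st1 and Ext2 to Hs2st1 was the same in 16 of 16 samples. Hs2st1 and Ndst1 could not be ordered, since Hs2st1 was the higher in 8 of 16 samples. Ndst1 exceeded Xylt2 in 15 samples, Xylt2 exceeded Glce in 14, and Glce exceeded Ext1 in 16. Between the related enzymes, Ndst2 lay 8.80 to 57.1 times above Ndst1 per kb, and Ext2 13.3 to 35.1 times above Ext1. Ext1, with 30 to 116 counts a sample, and Xylt2, with 43 to 336, rested on the fewest reads beside Glce with 58 to 183.

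**Figure D1:**
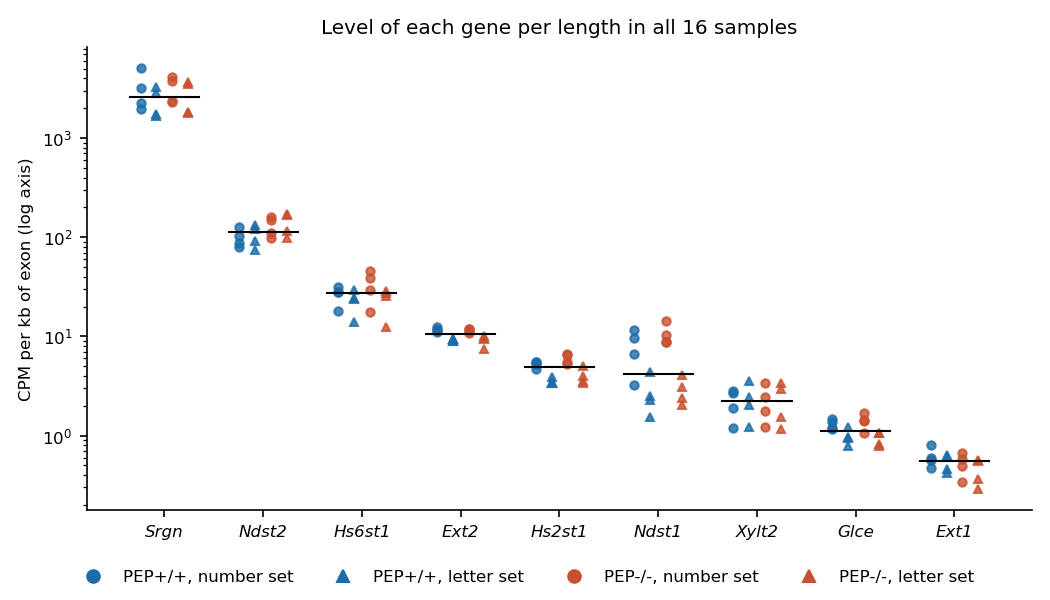
Level of each gene per kb of exon (CPM per kb, log axis) in each of the 16 samples; the black bar is the median. Points are coloured by genotype and shaped by title set. Srgn lies highest (median 2616) and Ext1 lowest (median 0.559), and most Ndst1 points of the letter set (triangles) lie below those of the number set (circles).

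Antigen raised Srgn and lowered Xylt2 and Ndst2. In IgE samples, Srgn was at 4289 and 3668 CPM in PEP+/+ cells (number set, then letter set) and at 5100.0 and 3996 CPM in PEP-/- cells. After IgE DNP it was at 7076 and 6278 CPM in PEP+/+ cells and at 8359.7 and 7735 CPM in PEP-/- cells. All 4 samples with antigen were above all 4 without. The fitted change was 0.79 on the log2 scale (SE 0.18), a 1.72-fold rise with an edgeR adjusted p of 0.0127, and all 4 same-set differences were positive, from 0.71 to 0.95. Srgn is at chr10:62493833-62527451, minus strand (ENSMUSG00000020077).

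Xylt2, a xylosyltransferase that starts the chains, fell. Its level was 10.8, 9.80, 9.83 and 11.7 CPM in the IgE samples (PEP+/+ number and letter set, then PEP-/- number and letter set) and 4.73, 4.84, 4.84 and 4.68 CPM in the same order after IgE DNP. The groups did not overlap, and the samples with antigen lay close together. The log2 change was -1.14 (SE 0.15, edgeR adjusted p 0.000394), 2.21-fold lower. Another xylosyltransferase, Xylt1, was at 2.11 to 7.27 CPM after IgE and at 1.80 to 12.6 CPM after IgE DNP. With DEX, Xylt1 was at 3.15 to 17.3 CPM without antigen and at 2.28 to 13.5 CPM with it. Xylt2 is at chr11:94663851-94677515, minus strand (ENSMUSG00000020868).

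Ndst2, which N-sulfates the backbone, fell as well. It was at 579, 548, 674 and 779 CPM after IgE and at 394, 336, 449 and 442 CPM after IgE DNP, in the order given for Xylt2, again without overlap. The log2 change was -0.67 (SE 0.13, edgeR adjusted p 0.00398), 1.59-fold lower. Ndst2 is at chr14:20723730-20734562, minus strand (ENSMUSG00000039308).

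In all, 3 of the 9 genes passed the threshold of an adjusted p of 0.05 for antigen without DEX, 1 higher and 2 lower, against 16.7% of all 13305 genes tested, of which 9.07% were higher and 7.58% lower. The median log2 change of the 9 was -0.01, as against -0.000654 over all genes. The other 6 genes had log2 changes of 0.34 for Ext1, 0.27 for Hs6st1, 0.11 for Glce, -0.01 for Ext2, -0.01 for Hs2st1 and -0.41 for Ndst1, with SEs from 0.18 to 0.73. None of these passed. A model with a term for the title set (the replicate block) called 37.9% of all genes and the same 3 of the 9. With the block and total counts, 6 of 9 passed, against 7220 of the 13305 genes tested. The genes added were Ext2 (-0.36, edgeR adjusted p 0.00927), Ndst1 (-0.76, edgeR adjusted p 0.00969) and Hs2st1 (-0.35, edgeR adjusted p 0.0117).

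These values are relative to a scaling that holds the median gene still. Scaling by total counts alone moved the median of all genes by -0.34 for antigen without DEX and by -0.29 for antigen under DEX, and the share of called genes that were higher went from 54.47% to 21.15% and from 57.03% to 24.39%. With total counts the Srgn change was 0.45 (edgeR adjusted p 0.0985) without DEX and no longer passed, and Xylt2 and Ndst2 were at -1.48 and -1.003 and still passed. The Hs6st1 change without DEX turned to -0.067 with that scaling. The Srgn call was also lost without the letter-set IgE sample of PEP+/+ cells (edgeR adjusted p 0.0575) or of PEP-/- cells (0.069), while with the replicate block it was kept in each of 16 fits that left out 1 sample. Moving in the same direction as Srgn, the summed mast cell marker list went from 63201 to 72293 CPM after IgE to 69550 to 85549 CPM after IgE DNP, and of 6 housekeeping genes Actb, a cytoskeletal gene, rose by 0.87 on the log2 scale (edgeR adjusted p 0.0142). The basophil marker list went from 539 to 623 CPM to 750 to 882 CPM. Gene by gene, 1 of the 10 mast cell markers and 1 of the 3 basophil markers passed, each higher, where 16.7% of all genes passed. The median log2 changes of the 2 lists were 0.12 and 0.34. The part of these lists and of Actb in the Srgn result was not tested.

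**Figure D2:**
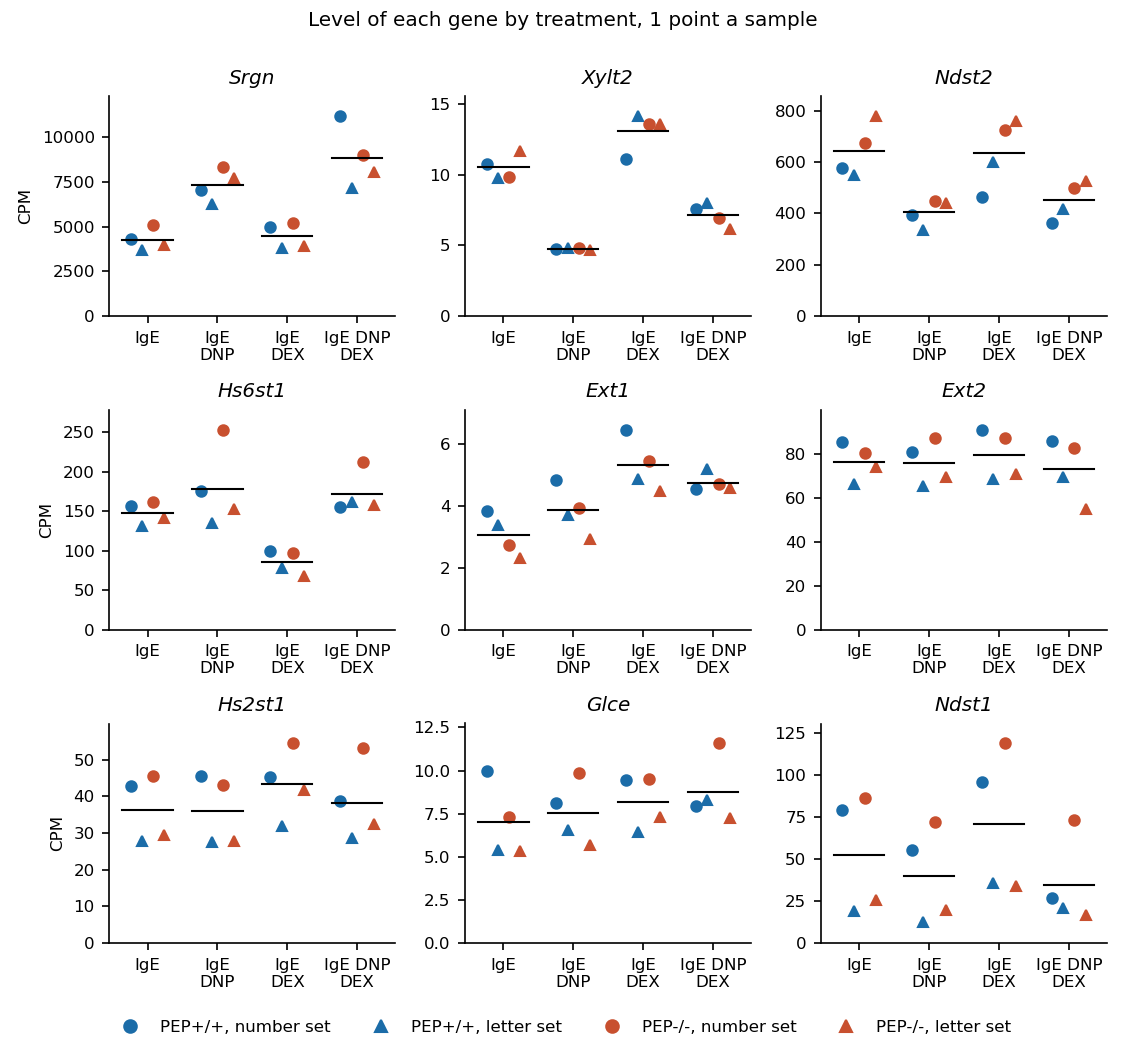
Level of each gene (CPM, linear axes from 0) by treatment, with 1 point for each of the 4 samples of a treatment; the bar is their mean. Blue is PEP+/+ and red PEP-/-, circles are the number set and triangles the letter set. Srgn is higher and Xylt2 and Ndst2 are lower in the samples with DNP, Hs6st1 is lowest after IgE DEX (68.1 to 99.3 CPM), and Ndst1 separates by title set.

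Because Srgn rose while Ndst2 fell, the ratio of the core protein transcript to this enzyme's transcript separated the samples by antigen. Per kb, Srgn was 10.6 to 15.7 times Ndst2 after IgE and 36.3 to 38.7 times after IgE DNP. After IgE DEX the ratio was 10.7 to 22.4, and after IgE DNP DEX 31.8 to 63.8. The highest value, 63.8, came from the PEP+/+ number-set sample, which also had the highest Srgn level of all 16 samples (11173 CPM).

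**Figure D3:**
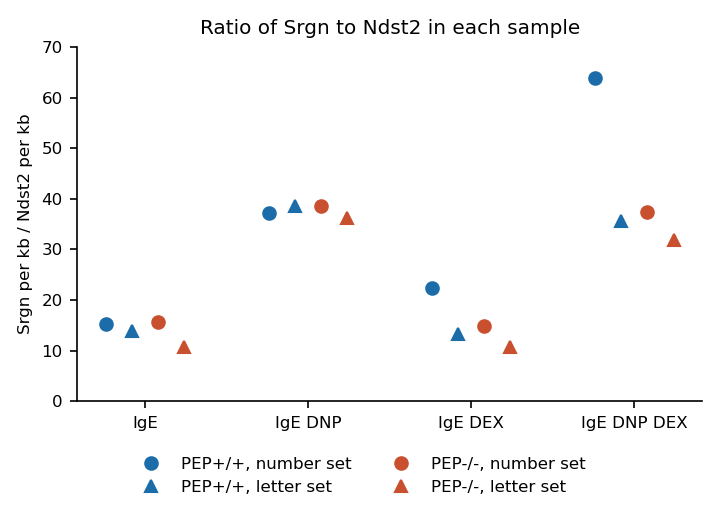
Ratio of Srgn to Ndst2, each in CPM per kb of exon, in the 4 samples of each treatment, coloured by genotype and shaped by title set. The samples with DNP lie at 31.8 or above and those without at 22.4 or below.

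Under DEX, antigen moved the same 3 genes in the same directions, and Hs6st1 in addition. Srgn was at 5005, 3828, 5212 and 3925 CPM after IgE DEX (PEP+/+ number and letter set, then PEP-/- number and letter set) and at 11173, 7180.1, 9031 and 8072 CPM after IgE DNP DEX, without overlap. The log2 change was 0.98 (SE 0.18, edgeR adjusted p 0.00544), 1.97-fold higher. The mast cell marker list summed to 70519 to 77778 CPM without and 80618 to 103720 CPM with antigen, and the basophil list to 228 to 392 CPM and 431 to 479 CPM. In each list 1 marker passed, as higher, of 10 and of 3, where 12.6% of all genes passed. The median log2 changes were 0.28 and 0.29. The part of these lists in the Srgn result was not tested. With total counts the Srgn change was 0.71 (edgeR adjusted p 0.0207).

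Hs6st1, a 6-O-sulfotransferase, rose about as much as Srgn. It was at 99.3, 77.8, 97.3 and 68.1 CPM after IgE DEX and at 155, 162, 213 and 158 CPM after IgE DNP DEX, in the order given for Srgn. The groups did not overlap, and the log2 change was 1.00 (SE 0.20, edgeR adjusted p 0.00686), 2.00-fold higher. Another 6-O-sulfotransferase, Hs6st2, was at 156 to 300 CPM after IgE DEX and at 155 to 313 CPM after IgE DNP DEX. Hs6st1 is at chr1:36068400-36106446, plus strand (ENSMUSG00000045216), and shares 447 bases of exon with an antisense gene, Gm37335, that the count files do not list.

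Xylt2 was at 11.1, 14.1, 13.6 and 13.6 CPM after IgE DEX and at 7.55, 8.00, 6.96 and 6.19 CPM after IgE DNP DEX, a log2 change of -0.87 (SE 0.15, edgeR adjusted p 0.00308), 1.83-fold lower without overlap. Ndst2 was at 463, 599, 725 and 760.4 CPM and then at 362, 417, 500.1 and 525 CPM, a log2 change of -0.49 (SE 0.13, edgeR adjusted p 0.0273), 1.41-fold lower. Here the groups overlapped, since PEP-/- cells with antigen reached the level of PEP+/+ cells without, but all 4 same-set differences were negative, from -0.54 to -0.36. The Ndst2 call was the least firm of these. It was lost (edgeR adjusted p 0.0526 to 0.118) without any 1 of the 8 samples compared other than PEP+/+ IgE DEX replicate 1 and PEP+/+ IgE DNP DEX replicate 2, and also without either PEP-/- IgE DNP sample.

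Antigen under DEX thus passed the threshold in 4 of the 9 genes, 2 higher and 2 lower, against 12.6% of all genes (7.19% higher and 5.42% lower). With the replicate block, 5 of 9 passed against 37.6% of all genes. The gene added was Ndst1, the more widely expressed N-sulfotransferase, with a log2 change of -1.12 (SE 0.74, edgeR adjusted p 0.385) without the block and -1.01 (SE 0.21, edgeR adjusted p 0.00177) with it. Ndst1 was at 96.0, 35.8, 119 and 33.8 CPM after IgE DEX and at 26.9, 20.6, 73.3 and 16.7 CPM after IgE DNP DEX. It was lower with antigen within each of the 4 same-set pairs, by 0.70 to 1.83 on the log2 scale, but the groups overlapped because the sets differ. The remaining genes had log2 changes of -0.16 for Ext1, -0.12 for Ext2, -0.18 for Hs2st1 and 0.10 for Glce, and none passed.

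**Figure D4:**
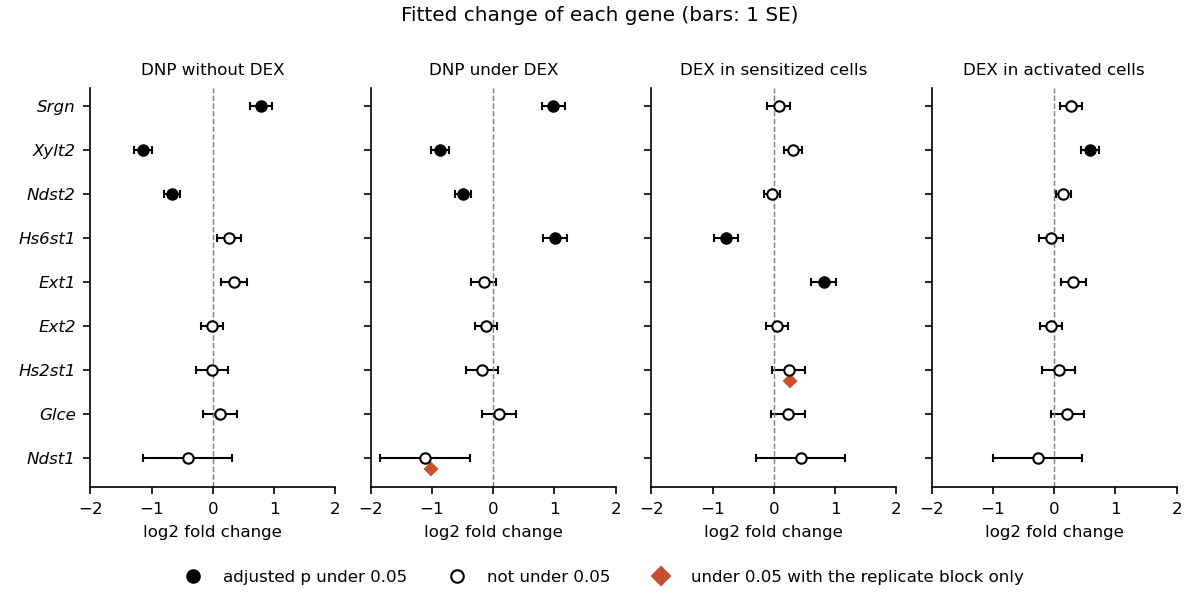
Fitted log2 fold change of each gene in the 4 treatment comparisons, with bars of 1 SE (edgeR, 4 samples against 4). Filled points have an adjusted p under 0.05 and diamonds mark the value with the replicate block where only that fit passed. Srgn lies right of 0 and Xylt2 and Ndst2 left of 0 in both antigen comparisons, Hs6st1 lies at 1.00 for antigen under DEX and at -0.78 for DEX in sensitized cells, and the bars of Ndst1 are the widest.

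Whether the response to antigen differed with DEX was tested as an interaction. It passed in 0 of the 9 genes by edgeR without the block, where 0.331% of all genes passed and 1 of the 9, Hs6st1, had an unadjusted p under 0.05, and DESeq2 called 0 of 9 as well. With the replicate block it passed in 1 of 9, against 1.57% of all genes. This was Hs6st1, whose response to antigen was larger under DEX by 0.77 on the log2 scale (SE 0.16, edgeR adjusted p 0.022), as against 0.74 (SE 0.28, edgeR adjusted p 1.0) without the block. All 4 same-set values were positive, from 0.48 to 1.10. In 16 fits with the block that left out 1 sample, it passed in 9. The interaction of Srgn was 0.19 (SE 0.26), that of Xylt2 0.27 (SE 0.21) and that of Ndst2 0.17 (SE 0.18), and none of these passed.

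DEX in sensitized cells raised Ext1 and lowered Hs6st1. Ext1, the catalytic partner of Ext2 in the backbone polymerase, was at 3.82, 3.38, 2.73 and 2.31 CPM after IgE and at 6.45, 4.88, 5.44 and 4.48 CPM after IgE DEX (PEP+/+ number and letter set, then PEP-/- number and letter set). The groups did not overlap, and the log2 change was 0.82 (SE 0.21, edgeR adjusted p 0.0288), 1.76-fold higher. Ext1 is at chr15:53064038-53346159, minus strand (ENSMUSG00000061731). Hs6st1 was at 157, 131, 161 and 141 CPM after IgE and fell to the 68.1 to 99.3 CPM given above, by 0.78 on the log2 scale (SE 0.20, edgeR adjusted p 0.0284), 1.72-fold lower. In all, 2 of 9 genes passed, 1 higher and 1 lower, against 9.37% of all genes (5.4% higher and 3.98% lower). With the replicate block 3 of 9 passed, against 26.7% of all genes, the gene added being the 2-O-sulfotransferase Hs2st1 at 0.26 (SE 0.09, edgeR adjusted p 0.0432, against 0.762 without the block).

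Both calls without the block lay near the threshold. The Ext1 call was lost (edgeR adjusted p 0.051 to 0.123) without any 1 of the 8 samples compared other than PEP+/+ IgE DEX replicate 2, and the Hs6st1 call (0.0508 to 0.121) without any 1 other than PEP-/- IgE DEX replicate 1. With the block, each was called in 16 of 16 fits that left out 1 sample, and Hs2st1 in 3 of 16. Hs2st1 was also not called with the block and total counts, where 2 of 9 genes passed, against 3712 of the 13305 tested. The basophil marker list summed to 539 to 623 CPM after IgE and 228 to 392 CPM after IgE DEX, and the macrophage list to 16.9 to 80.0 and 7.11 to 23.3 CPM. Both sums moved with Hs6st1. Gene by gene, 1 of the 3 basophil markers passed, as lower, and 0 of the 4 tested macrophage markers, where 9.37% of all genes passed. The median log2 changes were -0.16 and 0.02. The part of these cells in the fall of Hs6st1 was not tested. Srgn, at 0.08 (SE 0.18), and Ndst2, at -0.03 (SE 0.13), did not pass, nor did Xylt2 at 0.32 (SE 0.15).

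In activated cells, DEX raised Xylt2. From the 4.68 to 4.84 CPM after IgE DNP, Xylt2 went to 6.19 to 8.00 CPM after IgE DNP DEX without overlap, a log2 change of 0.58 (SE 0.15, edgeR adjusted p 0.0325), 1.50-fold higher. It remained below the 9.80 to 11.7 CPM of the IgE samples. This was 1 of 9 genes, against 10.7% of all genes (5.67% higher and 4.99% lower), and with the replicate block it was again Xylt2 alone, against 33.3% of all genes. The Xylt2 call was lost (edgeR adjusted p 0.0519 to 0.0984) without any 1 of the 8 samples compared and without either PEP-/- IgE DEX sample. With the block it was called in 16 of 16 such fits. Srgn was higher after IgE DNP DEX than after IgE DNP within all 4 same-set pairs, but by only 0.06 to 0.66 on the log2 scale, and its change of 0.27 (SE 0.18, edgeR adjusted p 0.426) did not pass.

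Ext2, Hs2st1 and Glce passed in none of the 4 treatment comparisons without the block. Ext2, which forms the polymerase with Ext1, had treatment means between 73.2 and 79.3 CPM, with single samples from 55.0 to 90.8 CPM. It is at chr2:93661028-93822568, minus strand (ENSMUSG00000027198), and overlaps genes on the other strand without sharing exon bases. Hs2st1 had treatment means between 36.1 and 43.4 CPM and is at chr3:144429706-144570181, minus strand (ENSMUSG00000040151). Glce, the epimerase, had treatment means between 7.00 and 8.76 CPM and is at chr9:62057248-62122655, minus strand (ENSMUSG00000032252). Its exons share 77 bases with Mir5133 on the same strand, which the count files list. Reads there may have been set aside as ambiguous in the counting and so be missing from the Glce counts, which was not tested.

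By edgeR without the block, none of the 9 genes differed past the threshold between PEP-/- and PEP+/+ cells. On the mean of the 4 treatments, 0 of 9 passed by edgeR, against 1.59% of all genes, and 1 of the 9 had an unadjusted p under 0.05. This was Ndst2, with a mean of 607 ± 142 CPM (SD, n = 8) in PEP-/- cells and 462 ± 102 CPM (SD, n = 8) in PEP+/+ cells. These SDs include the differences between the 4 treatments. The groups overlapped, from 442 to 779 against 336 to 599 CPM. The log2 difference was 0.38 (SE 0.09, edgeR adjusted p 0.0595), 1.30-fold higher, and Ndst2 was higher in PEP-/- cells in 8 of 8 same-set comparisons, by 0.19 to 0.65. The 8 comparisons are those of 4 treatments in 2 title sets. Whether the treatments of a genotype and set shared a culture was not stated, so the 8 may not be independent. With the replicate block, Ndst2 passed (edgeR adjusted p 0.00275) as 1 of 9, against 17.4% of all genes, and also in 16 of 16 fits with the block that left out 1 sample. DESeq2 without a block gave 0.39 with an adjusted p of 0.000365. Ext1 lay at -0.28 (SE 0.15) and was lower in 7 of 8 comparisons, and Srgn at 0.10 (SE 0.13), and neither passed by edgeR with or without the block or by DESeq2. Of the 16 fits with the block that left out 1 sample, Ext1 passed in 1 and Srgn in 0.

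Within single treatments, with 2 samples against 2, 0 of 9 genes passed in any of the 4 treatments by edgeR, where 1 gene of all, 0.00752%, passed in each. At an unadjusted p under 0.05, 1 of the 9 passed in IgE DEX samples, 1 in IgE DNP DEX samples and 0 in the others, and DESeq2 called 0. For Ndst2, the log2 differences were 0.37 with IgE alone, 0.29 with IgE DNP, 0.48 with IgE DEX and 0.40 with IgE DNP DEX, with an SE of 0.18 each. The genotypes were also compared in their responses to antigen, to DEX in sensitized cells and to DEX in activated cells. None of the 9 passed in any of these interactions by edgeR, with or without the block, nor at an unadjusted p under 0.05, and 0.0% of all genes passed without it. Antigen changed Srgn by 0.75 in PEP+/+ and by 0.83 in PEP-/- cells (mean of the 2 same-set log2 differences), Xylt2 by -1.08 and -1.15, and Ndst2 by -0.63 and -0.70.

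Ndst1, Hs2st1, Glce and Ext2 had larger log2 differences between the title sets than in any of the 4 treatment comparisons. Ndst1, at chr18:60684494-60748650, minus strand (ENSMUSG00000054008), was at 26.9 to 119 CPM in the number set and at 12.7 to 35.8 CPM in the letter set, and was lower in the letter set in 8 of 8 conditions. The log2 difference was -1.70 (SE 0.15, edgeR adjusted p 5.88e-07), 3.25-fold lower, and 409 genes (3.07% of those tested) differed at least as much. Hs2st1 (-0.58), Glce (-0.51), Hs6st1 (-0.35), Ext2 (-0.34) and Srgn (-0.31) were also lower in the letter set. The other N-sulfotransferase, Ndst2, lay at 0.07 (SE 0.07), Xylt2 at 0.06 (SE 0.09) and Ext1 at -0.22 (SE 0.11), and these did not pass. In total 6 of 9 passed, against 63.6% of all genes. This comparison was chosen after its values were seen. The titles alone define the sets, and the labels do not say whether a set was prepared together.

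**Figure D5:**
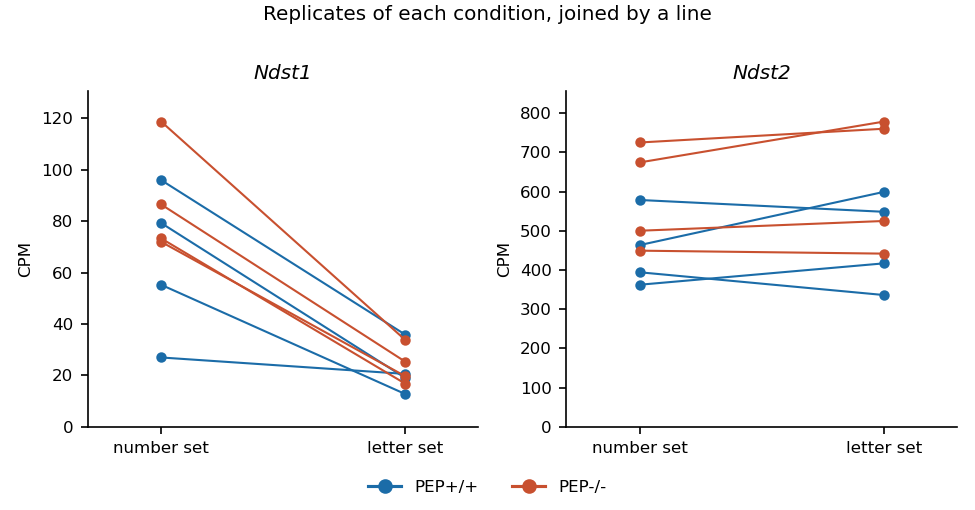
Level (CPM, linear axes from 0) of Ndst1 and Ndst2 in the number-set and letter-set sample of each of the 8 conditions, joined by a line and coloured by genotype. All 8 Ndst1 lines fall, from 26.9 to 119 CPM to 12.7 to 35.8 CPM, while the Ndst2 lines go both ways.

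The wider pathway was followed with lists of genes around these 9. Among 7 tested genes (of 14 listed) for other heparan sulfate polymerases and sulfotransferases, 1 rose and 2 fell with antigen without DEX. Of all genes, 9.07% rose and 7.58% fell past the threshold in that comparison. Hs3st1, the 3-O-sulfotransferase that makes the antithrombin-binding site of heparin, went from 81.4 to 93.9 CPM after IgE to 319 to 425 CPM after IgE DNP, a log2 change of 2.09 (SE 0.14, edgeR adjusted p 2.97e-06). Extl2 (-1.25, edgeR adjusted p 0.0057) and Extl3 (-0.62, edgeR adjusted p 0.0389), both exostosin-like glycosyltransferases, fell. Under DEX, Hs3st1 rose by 0.95 (edgeR adjusted p 0.00115) and Extl3 fell by 0.91 (edgeR adjusted p 0.00768). DEX in sensitized cells raised Hs3st1 by 0.89 (edgeR adjusted p 0.00185) and Hs3st3b1, with means of 0.32 CPM after IgE and 1.50 CPM after IgE DEX, by 2.22 (edgeR adjusted p 0.0169). The Hs3st1 response to antigen was smaller under DEX, with an interaction of -1.14 (SE 0.20, edgeR adjusted p 0.0389). The median log2 change of this list was 0.01 for antigen without DEX. In activated cells DEX moved 0 of the 7 past the threshold without the block and 4 with it, 2 higher and 2 lower, among them Hs6st2, a further 6-O-sulfotransferase, at -0.61 (edgeR adjusted p 0.000257). For the other treatment comparisons, the block called 6 of the 7 for antigen without DEX, 4 for DEX in sensitized cells and 3 for antigen under DEX. Of all genes, the block called 37.9%, 26.7% and 37.6% in these comparisons, and 33.3% for DEX in activated cells.

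Of 8 tested genes (of 9 listed) for the linkage region and its sugar donors, B3galt6, a linkage galactosyltransferase, fell with antigen (-0.65, edgeR adjusted p 0.041) and with DEX in sensitized cells (-0.76, edgeR adjusted p 0.0294), and 0 passed in the other treatment comparisons without the block. With the block, 2 passed for antigen without DEX, 6 for DEX in sensitized cells, 3 for DEX in activated cells and 2 for antigen under DEX. The shares of all genes passing with the block were 37.9%, 26.7%, 33.3% and 37.6% in this order. None of 7 genes listed for the supply and turnover of the sulfate donor passed in any treatment comparison by edgeR without the block. With it, 2 or 3 of the 7 passed in each, all lower, against 26.7% to 37.9% of all genes. Papss2, which makes the donor, fell in that fit with DEX in activated cells by 0.68 (edgeR adjusted p 0.000294). Of 10 tested genes (of 16 listed) for chondroitin and dermatan sulfate, the other chain type that serglycin carries, 3 fell with antigen without DEX. Of all genes, 16.7% passed there, and 7.58% were lower. The 3 were the sulfotransferases Chst14 (-1.09, edgeR adjusted p 0.0374) and Chst12 (-0.75, edgeR adjusted p 0.00259) and the polymerase Chsy1 (-0.67, edgeR adjusted p 0.00164). Chsy1 rose with DEX in sensitized cells (0.60, edgeR adjusted p 0.0051) and fell with antigen under DEX (-1.09, edgeR adjusted p 0.000106). Chst15, which makes the doubly sulfated units of chondroitin sulfate E, rose with antigen under DEX (0.84, edgeR adjusted p 0.00371) and with DEX in activated cells (0.63, edgeR adjusted p 0.0202). With the block, 6 of the 10 passed for antigen without DEX, as against 3, and the numbers for the other treatment comparisons were 2 for DEX in sensitized cells, 1 for DEX in activated cells and 4 for antigen under DEX.

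Of 9 tested genes (of 12 listed) for heparan sulfate breakdown, the sulfamidase Sgsh fell with antigen without DEX by 0.83 (edgeR adjusted p 0.0041). Of 9 tested genes (of 18 listed) for other proteoglycan core proteins, Cd44, a surface receptor for hyaluronan, rose with antigen by 2.10 (edgeR adjusted p 5.98e-06) and fell with DEX in sensitized cells by 1.11 (edgeR adjusted p 0.000822). Gpc5, a glypican with at most 3 counts in an IgE sample, passed as higher with DEX in sensitized cells (edgeR adjusted p 0.0262), with means of 0.061 CPM after IgE and 0.59 CPM after IgE DEX. With the block, 2 to 6 of the 9 breakdown genes and 2 to 5 of the 9 core protein genes passed in a treatment comparison. The block called 26.7% to 37.9% of all genes in these comparisons. Of 11 genes listed for granule contents stored with serglycin or for their formation, 2 rose and 0 fell with antigen without DEX. Of all genes, 9.07% rose and 7.58% fell past the threshold there. The 2 were Tpsab1, a tryptase (3.60, edgeR adjusted p 0.00225), and Hdc, the histamine-forming enzyme (3.12, edgeR adjusted p 6.77e-06). With DEX in sensitized cells, Hdc rose by 2.22 (edgeR adjusted p 0.000104), while Gzmb (-2.00, edgeR adjusted p 0.00452), Mcpt1 (-1.50, edgeR adjusted p 0.00658) and Tpsg1 (-1.34, edgeR adjusted p 0.0147), all proteases, fell. These were 4 of the 11, against 9.37% of all genes. With the block, 3 of the 11 passed for antigen without DEX and 4 for antigen under DEX. The block called 5 for DEX in sensitized cells and 7 for DEX in activated cells. On the mean of the 4 treatments, PEP-/- and PEP+/+ cells differed past the threshold in 0 genes of each of these 7 lists by edgeR without the block. With the block, 1 to 3 genes passed in each of the 7 lists, against 17.4% of all genes.

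The genes whose log2 CPM followed Srgn most closely over the 16 samples, of 8371 genes with a mean of at least 10 CPM, were Vim (r = 0.97), Gla (0.96), Rap1b (0.96), Anxa5 (0.96) and Tpst2 (0.96). These are correlations between genes over samples that share treatment and title set, and they are given as a description. Vim, an intermediate filament gene, averaged 417 CPM with IgE alone, 1588 CPM in IgE DNP samples, 603 CPM with IgE DEX and 2085 CPM in IgE DNP DEX samples. Among the 9 genes, the correlation with Srgn was -0.74 for Xylt2, -0.69 for Ndst2 and 0.66 for Hs6st1, and lay between -0.09 and 0.38 for the others.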

How the data were processed

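RNA of 16 BMMC samples was sequenced from stranded poly(A) libraries. According to the study's methods, the authors used TopHat2 for alignment against GRCm38 and HTSeq for counting, and they deposited raw counts for 39179 genes with 5 rows of unassigned reads (29.1% to 49.6% of a sample's reads), which were left out here. The strand setting of the counting was not given in the sources used here, and reads with several alignments were not counted. Samples were grouped by the labels' genotype and treatment. Symbols and coordinates are those of GENCODE M21 (95.99% of identifiers matched), and promoter sequences those of RefSeq.

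The test was the quasi-likelihood test of edgeR 4.0.16 (R 4.3.3) after TMM scaling, with 8 condition means over all samples and with Benjamini-Hochberg adjustment over the 13305 genes kept by filterByExpr at a minimum count of 10, a threshold of 0.05 and SE as the log2 change over the root of F. The genes and lists were chosen with earlier results of these data known. All 9 members are named. List genes were named by size of change among those past the threshold, at most 5 a list and comparison, or those past it with the block where there were none. The text gives some of these. A named result of the heparan sulfate breakdown list is not reported here. The 5 genes most like Srgn were taken by Pearson correlation of log2 CPM (prior count 2).

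Samples of the same title set deviated together from their condition means (r of 0.453 to 0.799 over all 28 pairs of conditions, median 0.718). The pairs with PEP+/+ IgE DNP DEX were the lowest, at 0.453 to 0.554, and all others were at 0.65 or above. The sets thus pair the samples, least closely in that condition. A fit with the set as a block is given where it changes the call of a member, and as counts for the lists. Alternatives were DESeq2 1.42.0, DESeq2 size factors, total counts, no filter, a filter of 10 counts in each sample, a fit of only the conditions compared, the block and leaving out each sample. The scripts were tested on simulated data.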

Additional observations from a re-analysis of the deposited data

Results flagged for a closer look

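Ext2 moved in opposite directions in the 2 genotypes when DEX was added to activated cells: both same-set differences were positive in PEP+/+ cells (0.09 and 0.09 on the log2 scale) and both negative in PEP-/- cells (-0.08 and -0.34). The mean differences were 0.09 and -0.21, which makes the PEP-/- value 0.30 lower (-0.30 for PEP-/- minus PEP+/+). The sign pattern by itself was not tested. The fitted interaction of genotype and DEX in activated cells was -0.27 for Ext2 (SE 0.35, edgeR adjusted p 1.0).

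Hs6st1 responded more to antigen under DEX than without it in the fit with the replicate block, by 0.77 on the log2 scale (edgeR adjusted p 0.022). Without the block the value was 0.74 and did not pass. After IgE DEX alone its 4 samples lay between 68.1 and 99.3 CPM, below all other samples.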

How the results depend on the processing

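The 54 log2 changes of the 9 genes in 6 comparisons kept direction and side of the threshold 54 times with DESeq2 size factors and with at least 10 counts in every sample, 53 times with DESeq2, 50 times with no filter, 50 times with only the conditions compared, 49 times with the replicate block and 45 times with total counts. Among the 9 genes, the replicate block changed the calls of Hs2st1 (DEX in sensitized cells), Ndst1 (antigen under DEX), Hs6st1 (interaction) and Ndst2 (genotype), given above, and no other call. With it, the interaction passed in 1 gene and the genotype mean in 1, also with DESeq2 size factors or total counts in the block fit, and DESeq2 gave 1 for the genotype mean. With total counts and the block, 6 genes passed for antigen without DEX and 7 for antigen under DEX, where 7220 and 6414 of all 13305 genes passed. For DEX in sensitized cells 1 gene passed with total counts, with no filter and with only the conditions compared, and for DEX in activated cells 0 passed under each of these. The gene lost was Ext1 in the first comparison (edgeR adjusted p 0.0626, 0.182 and 0.0695) and Xylt2 in the second (edgeR adjusted p 0.0544, 0.283 and 0.142). No filter and only the conditions compared each also lost Ndst2 under DEX (edgeR adjusted p 0.152 and 0.117), and no filter called Ndst1 there (edgeR adjusted p 8.01e-06). The cause was not tested.

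Values near 0 changed sign under scaling. With total counts, Glce went to -0.22 and Hs6st1 to -0.067 for antigen without DEX, Srgn to -0.019 and Ext2 to -0.042 for DEX in sensitized cells, and Glce to -0.16 for antigen under DEX and 0.064 for the interaction. With total counts and the block, these were -0.23, -0.089, -0.023, -0.048, -0.13 and 0.098, and Ext1 was at -0.0021 for antigen without DEX and Glce at -0.016 for genotype. The Glce interaction was 0.019 with the block and 0.023 with the block and DESeq2 size factors, and Ndst2 was at 0.0012 for DEX in sensitized cells with only the conditions compared.

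Leaving out 1 sample, the number of genes passing was 2 to 3 for antigen without DEX, 0 to 2 for DEX in sensitized cells, 0 to 1 for DEX in activated cells and 3 to 4 for antigen under DEX, and 0 in the interaction and genotype comparisons. 21 of the 54 changes, none past the threshold with all samples, changed sign. For antigen without DEX the ranges were -0.11 to 0.087 for Ext2, -1.13 to 0.28 for Ndst1, -0.12 to 0.37 for Glce and -0.22 to 0.17 for Hs2st1. For DEX in sensitized cells they were -0.029 to 0.18 for Srgn, -0.051 to 0.16 for Ext2, -0.15 to 1.13 for Ndst1 and -0.12 to 0.061 for Ndst2. For DEX in activated cells they were -0.19 to 0.095 for Ext2, -0.97 to 0.45 for Ndst1, -0.10 to 0.30 for Hs2st1 and -0.19 to 0.18 for Hs6st1. For antigen under DEX they were -0.26 to 0.029 for Ext2 and -0.068 to 0.27 for Glce. For the interaction they were -0.24 to 0.052 for Ext2, -1.40 to 0.033 for Ndst1, -0.28 to 0.24 for Glce and -0.35 to 0.064 for Hs2st1. For the genotype mean they were -0.059 to 0.025 for Xylt2, -0.098 to 0.046 for Ext2 and -0.095 to 0.15 for Glce. Between replicates of a group, chi-square per degree of freedom was 54.9 to 163, where counting noise alone gives 1.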
